A study of Mus musculus with 9 samples.

Results

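The AP-1 family transcription factor genes Fos, Fosb, Fosl1, Fosl2, Jun, Junb, Jund and Atf3 were followed across RNA sequencing libraries of mouse corona radiata. They were chosen by gene symbol, with earlier results of these data known. All 8 were found, each on 1 row, among the 54838 rows of the deposited RPKM matrix (reads scaled by the length of the gene and the size of the library). The corona radiata is the innermost layer of cumulus cells, of granulosa origin, around the egg. They came from adult mice after stimulation with PMSG, which drives follicle growth, and hCG, the ovulatory signal; the treatment label also carries the mark J4, which is not explained. The 9 libraries comprise 3 of DKO LXR mice with the transgene TG-AMH-LXRb (transgenic), 3 of DKO LXR mice (LXR DKO), which lack both liver X receptors, and 3 of wild type mice (WT). All 9 libraries share the hormone treatment, and the transgenic libraries share the double knockout with the LXR DKO libraries. The labels describe neither the promoter and coding sequence of the transgene nor the deleted parts of the receptor genes. They do not say whether a library is 1 animal or a pool, so the p-values cover only the spread among these libraries, and that spread may be technical. Where 3 values of a genotype are listed, they are libraries 1, 2 and 3 in that order.

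AP-1 is a dimer of basic leucine zipper proteins. Jun proteins pair with each other or with Fos proteins, whereas Fos proteins need a Jun partner, and the dimers bind the TPA response element TGAGTCA and, with ATF partners, the cAMP response element TGACGTCA. MAP kinases induce Fos and Jun within minutes of a stimulus and phosphorylate their products, and JunB and JunD can oppose c-Jun at some promoters. In rat granulosa cells, gonadotropins induce AP-1 genes, and JunD and Fra-2, the product of Fosl2, are the forms that persist in luteinized cells. Liver X receptors are oxysterol-activated nuclear receptors that regulate cholesterol and lipid genes and can repress inflammatory genes in macrophages.

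The members lie apart in the mm10 genome, except for Junb and Jund, which share a chromosome. In GENCODE M21, Jun (ENSMUSG00000052684) is a single-exon gene on the minus strand of chromosome 4, 95049034 to 95052222. Junb (ENSMUSG00000052837) is on the minus strand of chromosome 8, 84974484 to 84978718, and Jund (ENSMUSG00000071076) is a single-exon gene on the plus strand of chromosome 8, 70698949 to 70700616. Fos (ENSMUSG00000021250) is on the plus strand of chromosome 12, 85473890 to 85477273, and Fosb (ENSMUSG00000003545) on the minus strand of chromosome 7, 19302696 to 19310051. Fosl1 (ENSMUSG00000024912) is on the plus strand of chromosome 19, 5447547 to 5455946, Fosl2 (ENSMUSG00000029135) on the plus strand of chromosome 5, 32135801 to 32157842, and Atf3 (ENSMUSG00000026628) on the minus strand of chromosome 1, 191170296 to 191218039. Because the strand setting of the counting is not given in the sources used here, members that overlap a gene on the other strand have uncertain values. Fosl1 shares 1163 exonic bases with Ccdc85b (11.04 to 23.0 RPKM over the 9 libraries), and Junb shares 173 with Prdx2 (99.6 to 123 RPKM). Jun shares 232 with the antisense gene Junos, which measured at most 0.966 RPKM, and Jund shares 877 with Gm11175, which is listed at 0 in every library.

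The sequence upstream of Jun, Fos and Junb is shown because these members, with Jund, were lower in both knockout genotypes, and because Jun is known to be controlled by its own product through an AP-1-like element in its promoter. Each sequence is the 250 bases before the RefSeq start (GRCm38.p6, the assembly of mm10), read 5′ to 3′ on the strand of the gene, at chr4:95052223-95052472 (minus) for Jun, chr12:85473640-85473889 (plus) for Fos and chr8:84978749-84978998 (minus) for Junb. Capitals mark a match to 1 of 5 motifs searched on both strands.
Jun: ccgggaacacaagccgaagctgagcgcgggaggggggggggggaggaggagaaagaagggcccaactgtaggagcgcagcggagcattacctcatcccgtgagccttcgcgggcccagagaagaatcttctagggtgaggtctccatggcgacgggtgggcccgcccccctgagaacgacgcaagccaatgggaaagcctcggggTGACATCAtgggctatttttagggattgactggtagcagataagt
Fos: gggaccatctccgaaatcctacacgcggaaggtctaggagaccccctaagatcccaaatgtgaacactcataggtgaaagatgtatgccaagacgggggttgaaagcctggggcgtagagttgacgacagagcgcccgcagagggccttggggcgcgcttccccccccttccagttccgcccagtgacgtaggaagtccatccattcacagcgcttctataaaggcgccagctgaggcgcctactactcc
Junb: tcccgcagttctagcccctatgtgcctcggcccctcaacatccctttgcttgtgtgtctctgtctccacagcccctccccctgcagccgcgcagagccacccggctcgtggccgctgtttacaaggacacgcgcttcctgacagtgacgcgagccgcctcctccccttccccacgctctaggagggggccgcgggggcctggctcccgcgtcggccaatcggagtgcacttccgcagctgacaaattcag
The motifs were TGAGTCA, TGACGTCA, TGACATCA, the CArG box of serum response elements, and the DR4 type of liver X receptor element, AGGTCA repeated after any 4 bases. Among the 7 members with a RefSeq window, the 1 match was TGACATCA in Jun, which begins 45 bases before the start. Only exact matches within these 250 bases were searched. Variant forms of the motifs, and elements farther upstream, are not covered, so a window without a match does not mean a promoter without such an element. TGACATCA was present in 2.93% of all 32851 windows of this length, TGAGTCA in 4.46%, TGACGTCA in 1.55%, the CArG box in 1.47% and the liver X receptor element in 0.0152%. The RefSeq start of Jund lies 1210 bases upstream of the exon that GENCODE M21 gives and against which its reads match, so its window is not printed.

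The libraries were scaled by the authors to 31086718 to 47038045 reads, as worked back from the RPKM values. Behind the members' values stood 7931 to 21486 reads per library for Junb, 5275 to 15047 for Jun, 3887 to 7378 for Fosl2, 2349 to 6826 for Fos and 823 to 3658 for Jund. Fosl1, Atf3 and Fosb had 230 to 631, 314 to 869 and 223 to 787 reads. Both receptor genes were lower in the 6 knockout libraries than in WT. Nr1h2, which encodes LXR beta, measured 4.83 to 6.70 RPKM in transgenic, 2.85 to 3.57 in LXR DKO libraries and 39.7 to 45.7 in WT libraries. The transgene is named for LXR beta. The Nr1h2 ranges of the transgenic and LXR DKO libraries were apart, with the higher values in transgenic (0.66 ± 0.12). This difference was not called after adjustment over all genes tested (limma adjusted p = 0.129). Whether reads of the transgene contribute to these RPKM values was not tested. Nr1h3, which encodes LXR alpha, measured 0.395 to 0.819 RPKM in transgenic, 0.713 to 1.08 in LXR DKO libraries and 3.50 to 5.72 in WT libraries. Amh, whose symbol is in the transgene's name, was at most 0.406 RPKM in transgenic libraries.

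Some libraries held RNA of other cells. The summed RPKM of 12 oocyte markers was 497 in LXR DKO 1 and 834 in WT 1, and at most 55.0 in any other library, so both are called oocyte-containing here. The sum of 7 erythroid markers was 9881 in WT 3 and at most 971 elsewhere. For 7 smooth muscle markers the sum was 25.8 to 78.9 in transgenic libraries, 87.7 in LXR DKO 2 and 93.7 in WT 3. It was 8.37 to 11.5 in the remaining LXR DKO and WT libraries. Because these are bulk samples, fewer cells of a type and less RNA per cell cannot be told apart.

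Jun, Junb, Jund and Fos fell in both knockout genotypes relative to WT, and no member rose. Against WT, 4 of 8 members fell in transgenic libraries, where 6.72% of all 16422 genes tested fell, and 4 of 8 fell in LXR DKO libraries, where 7.12% of all genes fell. None of the 8 rose, where 5.15% of all genes rose in transgenic minus WT and 3.47% in LXR DKO minus WT. The same 4 members were called in both comparisons, which share the WT libraries. Because the members were chosen with earlier results of these data known, the shares are given for scale and are no test of the family. No member passed the threshold between transgenic and LXR DKO libraries, where 0.116% of all genes did (0.0609% lower and 0.0548% higher in transgenic). Calls are from limma on log2(RPKM + 1) at an adjusted p under 0.05 (Benjamini-Hochberg over all genes tested), and fold changes are log2 ± SE on that scale, which understates the change of low genes. All 8 members passed the filter of 1 RPKM in at least 3 libraries. The groups did not overlap, with WT higher, for the same 5 members, these 4 and Fosb, against transgenic libraries (18.9% of all genes) and against LXR DKO libraries (15.9%). No member lay wholly above WT, as 16.8% of all genes did in transgenic and 13.1% in LXR DKO libraries.

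**Figure D1:**
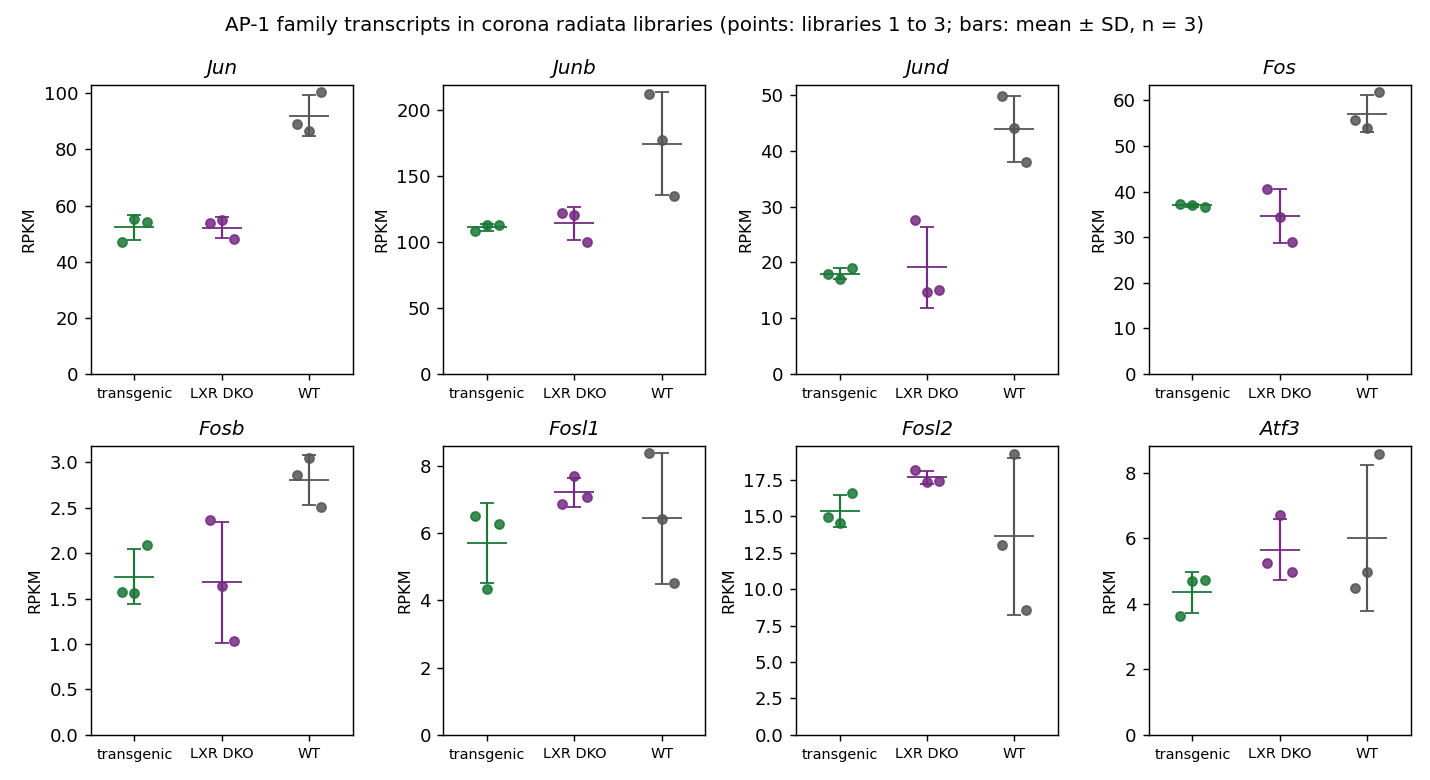
RPKM of each AP-1 member (vertical axes, 1 scale per gene, starting at 0) in transgenic, LXR DKO and WT libraries; points are libraries 1 to 3 from left to right and bars the mean ± SD (n = 3). For Jun, all transgenic and LXR DKO libraries lie between 47.2 and 55.2 RPKM and the WT libraries between 86.7 and 100.3 RPKM, whereas for Fosl1, Fosl2 and Atf3 the WT libraries overlap those of both other genotypes.

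Among the Jun proteins, c-Jun is the strong transactivator of the family and a substrate of the JNK kinases. Jun measured 47.2, 55.2 and 54.2 RPKM in the transgenic libraries, 53.8, 54.7 and 47.9 RPKM in the LXR DKO libraries, and 89.0, 86.7 and 100.3 RPKM in the WT libraries. The WT libraries all lay above the other 6, which were interleaved. Jun fell in transgenic libraries (52.2 ± 4.35 and 92.0 ± 7.29 RPKM, SD, n = 3 each; -0.81 ± 0.10, limma adjusted p = 0.00205). In LXR DKO libraries it averaged 52.1 ± 3.66 RPKM (SD, n = 3; -0.81 ± 0.10 against WT, limma adjusted p = 0.00201).

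JunB, a partner of Fos proteins with weaker activity than c-Jun on many promoters, had the highest transcript level of the family. Junb measured 108, 113 and 113 RPKM in the transgenic libraries, 122, 121 and 99.9 RPKM in the LXR DKO libraries, and 212, 177 and 135 RPKM in the WT libraries. All WT libraries lay above the others, WT 3 closest to them and WT 1 farthest. Junb fell by 0.62 ± 0.16 in transgenic libraries (111 ± 2.64 against 175 ± 38.8 RPKM, SD, n = 3 each; limma adjusted p = 0.0376). It fell by 0.59 ± 0.16 in LXR DKO libraries (114 ± 12.5 RPKM, SD, n = 3; limma adjusted p = 0.0462). The LXR DKO call did not hold when any 1 library other than WT 3 was left out (-0.64 to -0.44, limma adjusted p = 0.0586 to 0.16), and the transgenic call was lost without any transgenic library, LXR DKO 2, WT 1 or WT 2 (limma adjusted p = 0.0564 to 0.109).

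JunD is the member that many resting cells express at a steady level. Jund measured 17.96, 17.0 and 18.9 RPKM in the transgenic libraries, 27.5, 14.7 and 15.0 RPKM in the LXR DKO libraries, and 49.8, 44.0 and 37.9 RPKM in the WT libraries. The groups did not overlap with WT, and LXR DKO 1, the highest of its genotype, was 1.87 times the lowest. Jund had the lowest fold change of the family, -1.24 ± 0.21 in transgenic (17.98 ± 0.957 against 43.9 ± 5.94 RPKM, SD, n = 3 each; limma adjusted p = 0.011) and -1.21 ± 0.21 in LXR DKO libraries (19.1 ± 7.30 RPKM, SD, n = 3; limma adjusted p = 0.0109). Whether the members differ in the size of their fall was not tested. LXR DKO 1 and WT 1, which had the highest Jund and Junb of their genotypes, are the oocyte-containing libraries. Without both, Jund fell by 1.14 in transgenic (limma adjusted p = 0.00272) and by 1.40 in LXR DKO libraries (limma adjusted p = 0.00281), whereas Junb was no longer called (-0.47 and -0.49, limma adjusted p = 0.0913 and 0.103). The LXR DKO call of Jund was also lost without LXR DKO 3 (-1.08, limma adjusted p = 0.0508).

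**Figure D2:**
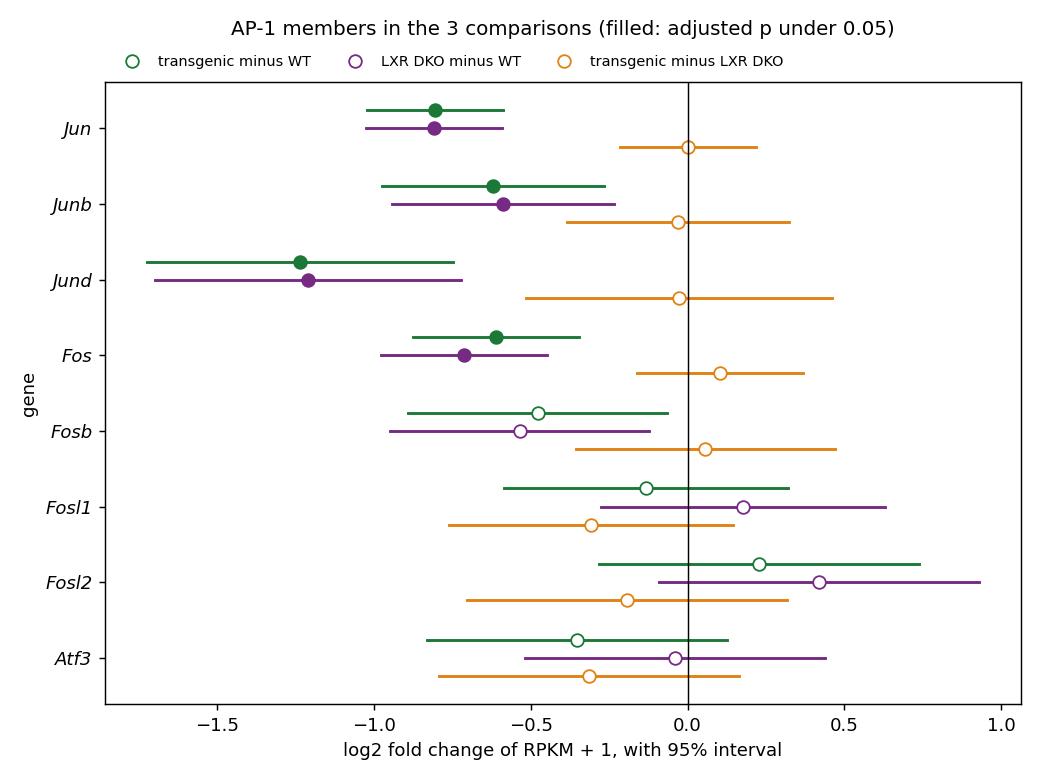
Log2 fold change of RPKM + 1 (horizontal axis) with its 95% interval for each member in the 3 comparisons, limma on all 9 libraries; filled points have an adjusted p under 0.05. Jun, Junb, Jund and Fos lie between -1.24 and -0.59 against WT, and all transgenic minus LXR DKO intervals include 0.

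Of the Fos proteins, c-Fos is the classic immediate early product, induced through serum response and cAMP response elements. Fos measured 37.3, 37.1 and 36.7 RPKM in the transgenic libraries, 40.6, 34.4 and 28.9 RPKM in the LXR DKO libraries, and 55.6, 53.9 and 61.7 RPKM in the WT libraries. The transgenic libraries lay within 1.02-fold of each other, inside the range of the LXR DKO libraries, and WT lay above both. Fos fell by 0.61 ± 0.12 in transgenic libraries (37.0 ± 0.299 against 57.1 ± 4.09 RPKM, SD, n = 3 each; limma adjusted p = 0.0153) and by 0.71 ± 0.12 in LXR DKO libraries (34.7 ± 5.85 RPKM, SD, n = 3; limma adjusted p = 0.00774). Without any 1 transgenic library the transgenic call missed the threshold (-0.61 to -0.60, limma adjusted p = 0.052 to 0.0582). Without both oocyte-containing libraries Fos fell by 0.63 in transgenic (limma adjusted p = 0.0212) and by 0.85 in LXR DKO libraries (limma adjusted p = 0.013).

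FosB is a close relative of c-Fos with its own transactivation domain, and its gene was the lowest of the family. Fosb measured 1.57, 1.56 and 2.09 RPKM in the transgenic libraries, 2.37, 1.64 and 1.04 RPKM in the LXR DKO libraries, and 2.86, 3.05 and 2.51 RPKM in the WT libraries. Every WT library lay above every other library, but the differences did not pass the threshold (-0.48 ± 0.18 in transgenic, limma adjusted p = 0.12, and -0.53 ± 0.18 in LXR DKO, limma adjusted p = 0.0992). With library weights estimated from the data, Fosb passed as lower in transgenic (-0.54, limma adjusted p = 0.0317) and in LXR DKO (-0.66, limma adjusted p = 0.0286), and without LXR DKO 1 it passed in LXR DKO (-0.71, limma adjusted p = 0.0294).

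The products of Fosl1 and Fosl2, Fra-1 and Fra-2, lack the transactivation domain of c-Fos. Fosl1 measured 6.51, 4.33 and 6.28 RPKM in the transgenic libraries, 6.87, 7.70 and 7.08 RPKM in the LXR DKO libraries, and 8.40, 6.42 and 4.51 RPKM in the WT libraries. The transgenic libraries lay below all LXR DKO libraries, and the WT libraries spanned nearly the whole range. Its reads gave whole numbers with a length of 1707 bases but not with the 2033 bases of GENCODE M21. The differences from WT were -0.13 ± 0.20 in transgenic (95% interval -0.59 to 0.32, limma adjusted p = 0.685) and 0.18 ± 0.20 in LXR DKO (95% interval -0.28 to 0.63, limma adjusted p = 0.633).

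Fosl2 measured 14.9, 14.5 and 16.6 RPKM in the transgenic libraries, 18.2, 17.4 and 17.4 RPKM in the LXR DKO libraries, and 13.0, 19.3 and 8.54 RPKM in the WT libraries. WT libraries differed 2.26-fold among themselves and enclosed all the others. Fosl2 was the 1 member whose estimate was above 0 in both comparisons with WT, without passing the threshold (0.23 ± 0.22 in transgenic, limma adjusted p = 0.529, and 0.42 ± 0.22 in LXR DKO, limma adjusted p = 0.278). Without WT 2 it passed as higher in LXR DKO (0.69, limma adjusted p = 0.0437), and without WT 3 the transgenic estimate turned to -0.05.

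ATF3 is a stress-induced ATF family protein that pairs with Jun proteins and often acts as a repressor. Atf3 measured 3.63, 4.69 and 4.72 RPKM in the transgenic libraries, 5.26, 6.71 and 4.98 RPKM in the LXR DKO libraries, and 4.48, 4.97 and 8.58 RPKM in the WT libraries. WT 3 was the highest of all libraries, and LXR DKO 2 the highest of the other 8. Against WT the differences were -0.35 ± 0.21 in transgenic (limma adjusted p = 0.292) and -0.04 ± 0.21 in LXR DKO (limma adjusted p = 0.934). The macrophage marker sum over 10 genes was also highest in these 2 libraries, 421 RPKM in LXR DKO 2 and 432 RPKM in WT 3. The sum was 120 to 190 RPKM in transgenic, 264 and 323 RPKM in LXR DKO 1 and 3, and 225 and 247 RPKM in WT 1 and 2. Cd14 alone gave 151 RPKM of it in LXR DKO 2, against 49.5 RPKM in LXR DKO 3. C1qa, C1qb and Tyrobp were also higher in LXR DKO 2 than in LXR DKO 3, whereas Adgre1, Csf1r, Cd68, Fcgr1, Mrc1 and C1qc were lower. The part of macrophage RNA in the Atf3 values was not tested.

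Transgenic and LXR DKO libraries differ, by their labels, in the transgene. For the members called against WT, the estimates of transgenic minus LXR DKO were 0.0010 ± 0.096 for Jun (95% interval -0.22 to 0.22), -0.03 ± 0.16 for Junb (-0.38 to 0.32), -0.03 ± 0.21 for Jund (-0.51 to 0.46) and 0.10 ± 0.12 for Fos (-0.16 to 0.37). Their limma adjusted p values were between 0.87 and 0.999, and the signs of all 4 changed under at least 1 alternative processing or omitted library. Fosl1, Fosl2 and Atf3 did not overlap between these genotypes, each lower in transgenic libraries, where 7.05% of all genes had groups that did not overlap in that direction and 11.3% in the other. Their estimates of -0.31 ± 0.20, -0.19 ± 0.22 and -0.31 ± 0.21 did not pass the threshold (limma adjusted p = 0.751, 0.879 and 0.759), and Fosb was at 0.06 ± 0.18 (limma adjusted p = 0.967). None of the 8 members was called in this comparison under any of the alternatives or omissions run.

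Because RPKM is per length, the levels of the members can be set side by side. The sum of the 8 members was 237, 247 and 253 RPKM in the transgenic libraries, 277, 258 and 222 RPKM in the LXR DKO libraries, and 435, 396 and 359 RPKM in the WT libraries, with every WT library above the others. In level the order over all libraries was Junb, Jun, Fos, Jund, Fosl2, Fosl1, Atf3 and Fosb. The library ranges of Fosl1 and Atf3 overlapped in transgenic and WT libraries and those of Jund and Fosl2 in LXR DKO libraries, so these neighbours did not separate there. Junb made up 45.3% ± 0.513 of the sum in transgenic, 45.3% ± 1.34 in LXR DKO libraries and 43.7% ± 5.67 in WT libraries (SD, n = 3 each). Jund made up 7.32% ± 0.373 in transgenic, 7.47% ± 2.201 in LXR DKO libraries and 11.05% ± 0.441 in WT libraries (SD, n = 3 each). Fosl2 made up 6.24% ± 0.355 in transgenic, 7.04% ± 0.69 in LXR DKO libraries, and 3.42% ± 1.30 in WT (SD, n = 3 each).

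The sum of the 4 Fos-family genes divided by that of the 3 Jun genes was 0.347, 0.310 and 0.331 in transgenic, 0.334, 0.322 and 0.334 in LXR DKO libraries, and 0.228, 0.268 and 0.283 in WT libraries. The WT libraries lay below all the others. Summed Jun-family RPKM averaged 182 ± 7.003 in transgenic, 186 ± 20.8 in LXR DKO libraries and 311 ± 39.1 in WT libraries (SD, n = 3 each). Summed Fos-family RPKM averaged 59.8 ± 2.14 in transgenic, 61.2 ± 6.79 in LXR DKO libraries, and 80.0 ± 2.70 in WT (SD, n = 3 each). These sums were not tested, because the members were chosen with results of these data known.

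**Figure D3:**
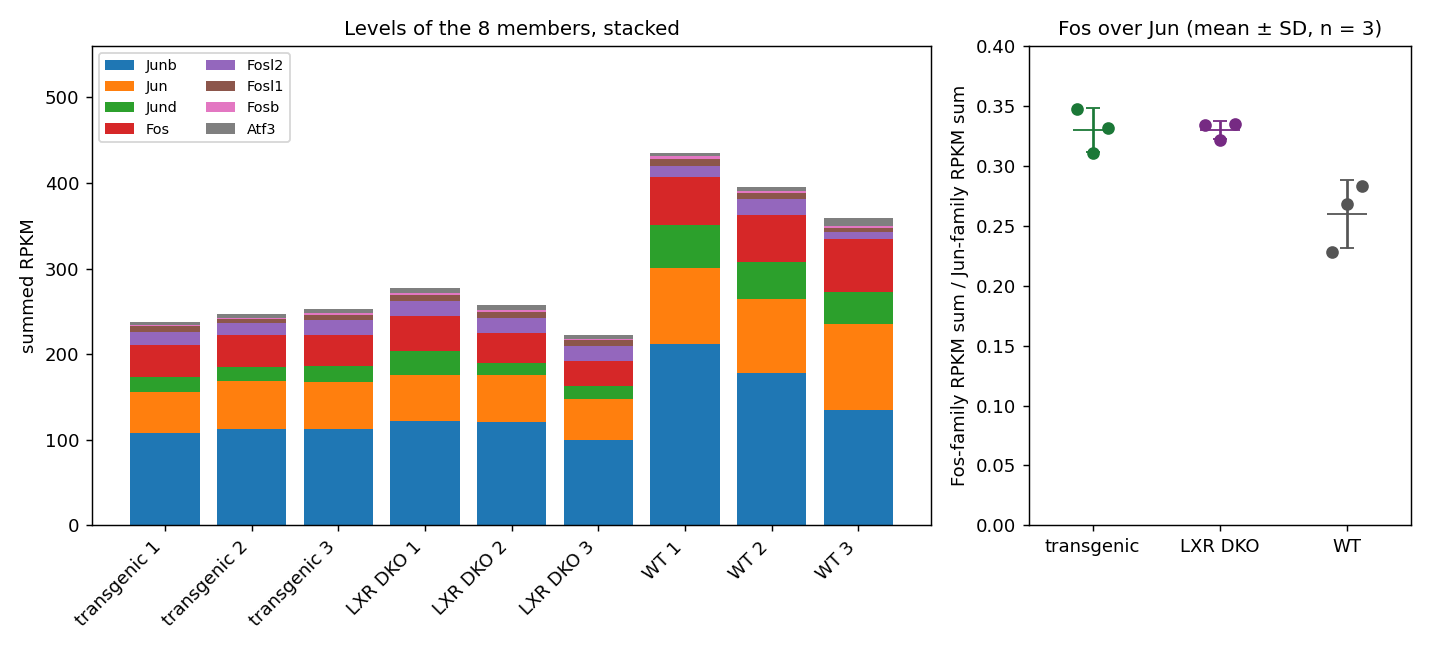
Left, RPKM of the 8 members stacked for each library (the height of a bar is their sum); right, the Fos-family sum divided by the Jun-family sum per library with mean ± SD (n = 3). The 6 knockout libraries reach 222 to 277 RPKM and the WT libraries 359 to 435 RPKM, and the quotient is 0.310 to 0.347 in the knockout libraries and 0.228 to 0.283 in WT.

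Likeness of pattern was measured as the root mean square difference of centred log2(RPKM + 1) over the 9 libraries, which all these genes share, and says nothing about function or control. Fos and Jun were each other's closest member, 0.13 log2 units apart, but many genes outside the family lay closer. Among all other tested genes, Jun had rank 135 by closeness to Fos, and Fos had rank 24 by closeness to Jun. Among other genes, Jun was closest to Sh3bgrl3 and Arf5 (both 0.10) and Pdcd5-ps (0.11), and Fos to Gm6444 (0.057), Gm11598 (0.060) and Arf5 (0.061); pseudogenes among these can share reads with their parents. Arf5, which encodes a small GTPase of membrane traffic, measured 54.5, 54.0 and 53.8 RPKM in transgenic, 60.3, 52.6 and 45.2 RPKM in LXR DKO libraries and 93.1, 82.4 and 96.1 RPKM in WT libraries. Junb was closest to Trim8 (0.095), Col5a1 (0.097) and Smc6 (0.10), and to Fosb among the members (0.19, rank 312). Jund was closest to Ier5l (0.13), Id1 and ENSMUSG00000116622 (both 0.15), and to Jun among the members (0.33, rank 261). Id1, which encodes an inhibitor of basic helix-loop-helix factors, measured 24.2, 26.04 and 26.9 RPKM in transgenic, 39.4, 17.6 and 19.9 RPKM in LXR DKO libraries and 57.1, 54.8 and 62.1 RPKM in WT libraries, with LXR DKO 1 above the other knockout libraries as for Jund. Atf3 was not called, and its neighbour Irf8, a factor of myeloid cells named after its values were seen, lay 0.066 away.

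Genes around AP-1 were taken from lists by role. Among all genes, 11.9% passed in transgenic minus WT and 10.6% in LXR DKO minus WT, with medians of 0.015 and 0.017 on the log2 scale. Of 23 tested genes of other basic leucine zipper factors, 3 fell and 0 rose in transgenic (median -0.04), and 1 fell and 0 rose in LXR DKO (median -0.02). Jdp2, a repressor that pairs with Jun proteins, fell in transgenic (2.16 ± 0.464 against 4.28 ± 0.465 RPKM in WT, SD, n = 3 each; limma adjusted p = 0.0116) and in LXR DKO (2.75 ± 0.20 RPKM; limma adjusted p = 0.0489), where the call was lost under 14 alternatives or omissions. Ddit3, which encodes the stress factor CHOP, fell in transgenic libraries by 0.35 ± 0.079 (limma adjusted p = 0.0273), a call lost under 8 alternatives or omissions.

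Of 24 tested genes of the MAP kinase cascades, 1 rose and 1 fell in transgenic (median 0.12), and 0 rose and 1 fell in LXR DKO (median 0.09). Mapk7, which encodes ERK5, a kinase that acts on MEF2 factors upstream of Jun, measured 4.56, 4.17 and 4.94 RPKM in transgenic, 6.22, 5.08 and 5.17 RPKM in LXR DKO libraries and 12.8, 12.5 and 12.5 RPKM in WT libraries. It fell by 1.29 ± 0.096 in transgenic (limma adjusted p = 0.000145) and by 1.07 ± 0.096 in LXR DKO (limma adjusted p = 0.000459). Mapk14, the p38 alpha kinase gene, rose by 0.41 ± 0.10 in transgenic (27.0 ± 1.34 against 20.1 ± 1.41 RPKM in WT; limma adjusted p = 0.0393), a call lost under 9 alternatives or omissions. Of 8 tested genes of SRF, TCF and MEF2 factors, Elk1, a ternary complex factor that binds beside SRF at the Fos promoter, fell in both comparisons (2.36 ± 0.369 RPKM in transgenic, 2.09 ± 0.183 in LXR DKO libraries and 4.37 ± 0.746 in WT; limma adjusted p = 0.018 and 0.00961 against WT), and no other passed. The Elk1 calls were lost without both oocyte-containing libraries (limma adjusted p = 0.0656 in transgenic and 0.0605 in LXR DKO), and the transgenic call also without transgenic 1, transgenic 3, WT 1 or WT 2.

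Of 9 tested MAP kinase phosphatase genes, 2 fell and 0 rose in each comparison with WT (median -0.08 in transgenic and 0.10 in LXR DKO). Dusp6, the cytoplasmic ERK phosphatase that ERK signalling itself induces, measured 80.4, 101 and 80.9 RPKM in transgenic, 70.0, 65.9 and 62.6 RPKM in LXR DKO libraries and 151, 162 and 124 RPKM in WT libraries (-0.72 ± 0.13 and -1.12 ± 0.13, limma adjusted p = 0.0109 and 0.00156). Dusp4, a nuclear phosphatase, fell by 0.64 ± 0.13 in transgenic and 0.72 ± 0.13 in LXR DKO (limma adjusted p = 0.0211 and 0.0134). The Dusp4 calls were lost without both oocyte-containing libraries (limma adjusted p = 0.0756 in transgenic and 0.0612 in LXR DKO), the transgenic call also without transgenic 1, transgenic 3, WT 1 or WT 2, and the LXR DKO call without LXR DKO 3. Of 11 genes that act on turnover of AP-1 mRNA or protein, 1 fell in transgenic (median -0.24) and 4 fell in LXR DKO (median -0.31), and 0 rose. Zfp36l1, which directs decay of mRNAs with AU-rich elements, fell in both (7.77 ± 0.683 RPKM in transgenic, 7.18 ± 1.10 in LXR DKO libraries and 14.5 ± 2.38 in WT; limma adjusted p = 0.00983 and 0.00558). Zfp36l2, Elavl1 and Trib2 fell in LXR DKO (limma adjusted p = 0.0478, 0.0495 and 0.0375), each call lost under at least 12 alternatives or omissions.

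Genes known from other cells as AP-1 targets showed no common direction. Of 20 tested, 0 passed in transgenic (median 0.08; 9 below 0), and in LXR DKO 1 rose and 1 fell (median -0.03; 11 below 0). Hmox1, which encodes heme oxygenase, rose in LXR DKO (48.2 ± 18.3 against 21.4 ± 2.18 RPKM in WT, SD, n = 3 each; limma adjusted p = 0.0236), and S100a6, a calcium-binding protein gene, fell (117 ± 14.4 against 169 ± 18.6 RPKM; limma adjusted p = 0.0254). The Hmox1 call was lost under 4 alternatives or omissions (limma adjusted p = 0.0612 to 0.0678) and the S100a6 call under 6 (limma adjusted p = 0.0665 to 0.101), both with no filter, with only the 2 genotypes compared, and without LXR DKO 2 or WT 1. The list shares Krt18 with the oviduct markers, and 8 of its 28 genes were below the filter.

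Of 20 other immediate early genes tested, 2 rose and 6 fell in transgenic (median -0.05), and 2 rose and 4 fell in LXR DKO (median -0.07). Klf10, a TGF-beta-induced zinc finger gene, and Nr4a2, an orphan nuclear receptor gene, fell in both comparisons. Klf10 was at 11.6 ± 0.488 RPKM in transgenic, 10.9 ± 0.469 in LXR DKO libraries and 18.4 ± 1.96 in WT libraries (limma adjusted p = 0.00528 and 0.00284 against WT), and Nr4a2 at 3.55 ± 0.567 RPKM in transgenic, 3.24 ± 0.794 in LXR DKO libraries, and 6.74 ± 0.16 in WT (limma adjusted p = 0.0165 and 0.00959). The transgenic call of Nr4a2 was lost without transgenic 1, transgenic 3 or WT 2 (limma adjusted p = 0.0543 to 0.0647). Egr2, a zinc finger gene of the early growth response family, fell in LXR DKO libraries (55.1 ± 10.3 against 119 ± 13.0 RPKM in WT, SD, n = 3 each; limma adjusted p = 0.0075), a call lost without both oocyte-containing libraries (limma adjusted p = 0.0551). This lower level was not particular to LXR DKO. Egr2 measured 59.6, 87.9 and 59.1 RPKM in transgenic libraries and 134, 111 and 113 RPKM in WT libraries. Btg1, an antiproliferative gene, fell in transgenic (limma adjusted p = 0.00599). The 2 that rose, in both comparisons, were Ctgf and Cyr61, matricellular genes. Ctgf measured 22.2, 20.1 and 18.3 RPKM in transgenic, 18.9, 20.4 and 16.2 RPKM in LXR DKO libraries and 3.67, 3.65 and 4.98 RPKM in WT libraries (2.06 ± 0.13 and 1.94 ± 0.13, limma adjusted p = 7.2e-05 and 0.00011).

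**Figure D4:**
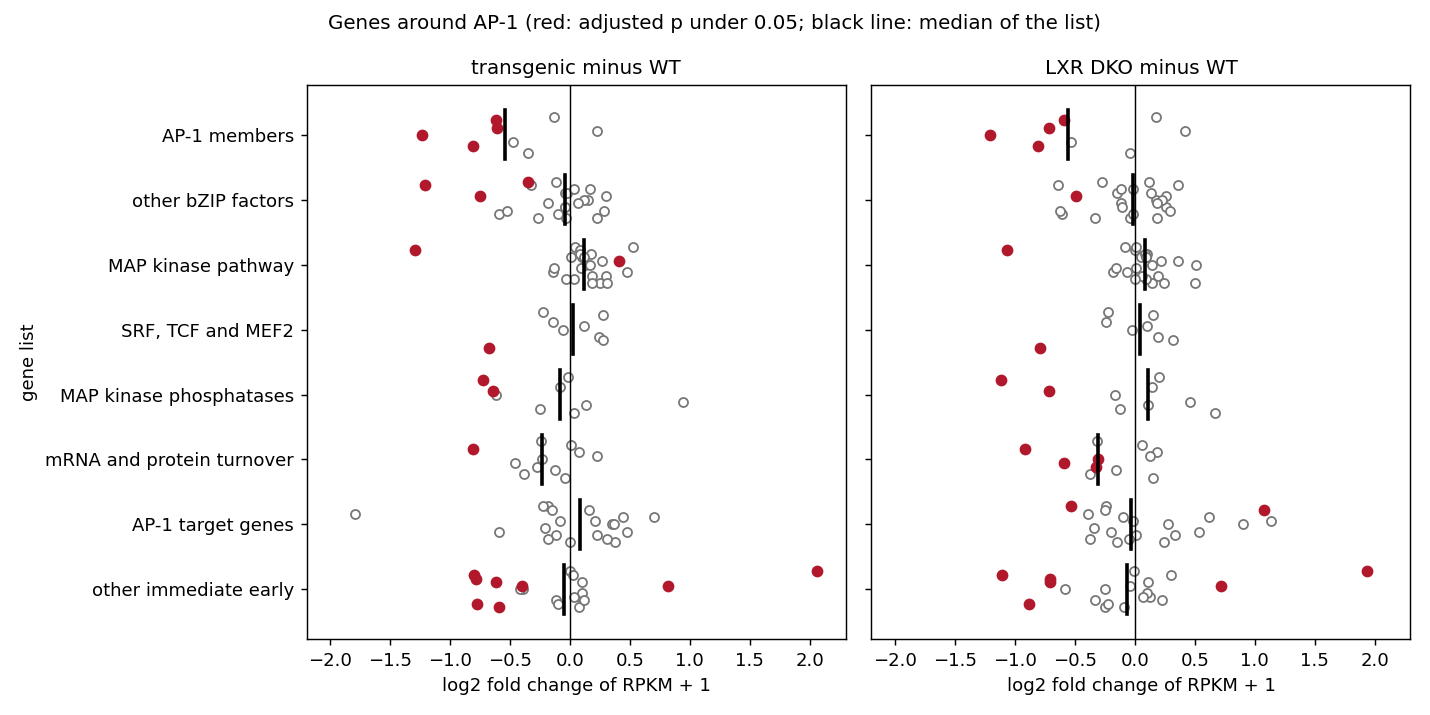
Log2 fold change of RPKM + 1 (horizontal axes) of every tested gene in the AP-1 family and 7 lists around it (rows), in transgenic minus WT and LXR DKO minus WT; red points have an adjusted p under 0.05 and black lines are list medians. The AP-1 row has medians of -0.54 and -0.56, and the row of target genes 0.08 and -0.03.

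Some markers of granulosa cells were lower in the knockout libraries together with the AP-1 genes, and others were not. Of 10 such markers 8 were tested; in each comparison with WT 3 fell (Inhba, Hsd17b1 and Fst), 0 rose and 5 did not pass. Of those 5, Inha and Foxl2 had estimates of -0.59 and -0.56 in transgenic and of -0.61 and -0.50 in LXR DKO. The other 3 were above 0, with 0.19 for Fshr, 0.06 for Nr5a2 and 0.04 for Inhbb in transgenic and 0.23, 0.28 and 0.05 for the same genes in LXR DKO. The summed RPKM of the 10 was 376 to 472 in transgenic, 352 to 549 in LXR DKO libraries and 664 to 728 in WT libraries, and none was at 0 in any library; Inha, Inhba, Fst and Hsd17b1 make up most of this sum. The summed RPKM of 10 oviduct epithelium markers was 1830 to 2448 in transgenic, 584 to 1091 in LXR DKO libraries and 389 to 2030 in WT libraries. In WT 1, WT 2 and WT 3 it was 443, 389 and 2030 RPKM, while Jun and Fos were highest in WT 3 and Junb and Jund lowest in WT 3 among the WT libraries. The part of these cell types in the AP-1 differences was not tested.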

How the data were processed

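RNA of corona radiata cells from 9 mouse libraries, 3 per genotype, was purified on columns, and its libraries were read on a NextSeq instrument, per the labels' protocols. The authors deposited RPKM values for 54838 genes, 1 column per library, and all columns of values were used (0 unused). The submitters' processing notes list mm10 and, with no roles, DESeq2 1.2.8, HTSeq 0.5.4p5, HISAT2 2.1.0 and cutadapt; the annotation is not given in the sources used here, nor is the strand setting. The names of the transgenic columns and of their samples' descriptions differ by 1 letter, so TG and the number matched them. With GENCODE M21 exon lengths, all 9 values were whole reads, within 0.02, for 98.1% of the 37863 genes above 0, including 7 members. No 2 libraries of a genotype were alike within sampling noise (lowest chi-square per degree of freedom 17.97).

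Values were tested as log2(RPKM + 1) for 16422 genes with at least 1 RPKM in at least 3 libraries, with limma 3.58.1 (R 4.3.3), moderated variances with a trend, genotype as the only factor and all 9 libraries in 1 fit, two-sided. P-values were adjusted by Benjamini-Hochberg, threshold 0.05. The fit was tested on simulated data. With 3 libraries against 3, an exact permutation test of 1 gene cannot go below 0.1, so none was used. Promoters came from RefSeq (GRCm38.p6). All members were named, and from each other list up to 4 genes per comparison with the smallest adjusted p among those past the threshold. A gene that this rule names is not reported here. The members and lists were chosen with earlier results of these data known. No batch is given in the labels. Alternatives were other pseudocounts (0.1, 5), filters (none, 5 RPKM), quantile normalization, only the genotypes compared, a replicate block, library weights, voom on the worked-back reads, and omission of libraries.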

Additional observations from a re-analysis of the deposited data

How the results depend on the processing

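Jun fell against WT in both comparisons under each of 19 alternatives, with -0.85 to -0.72 in LXR DKO and -0.85 to -0.74 in transgenic. Fos fell in LXR DKO and Jund in transgenic under all 19 (adjusted p up to 0.038 and 0.0439). Junb lost its call under 13 alternatives in LXR DKO and 9 in transgenic, among them no filter (adjusted p = 0.115 and 0.0911) and only the 2 genotypes compared (0.122 and 0.0658). Leaving out 1 library left 2 to 4 members lower in LXR DKO (2 without LXR DKO 3), 0 to 1 higher there (1 without WT 2), and 2 to 4 lower in transgenic libraries (2 without any transgenic library). Signs that turned were those of members not past the threshold. With library weights these were Atf3 in LXR DKO minus WT (0.18), and Jun (-0.020) and Jund (0.13) in transgenic minus LXR DKO. With quantile normalization Jun was at -0.023 in transgenic minus LXR DKO. Without both oocyte-containing libraries Jund (0.26) and Junb (0.021) turned in that comparison, and Fosl1 (0.053) in transgenic minus WT. Over single omitted libraries the ranges that crossed 0 were -0.057 to 0.070 for Jun, -0.12 to 0.021 for Junb, -0.17 to 0.26 for Jund, -0.015 to 0.22 for Fos and -0.13 to 0.24 for Fosb in transgenic minus LXR DKO; -0.19 to 0.21 for Atf3 and -0.025 to 0.36 for Fosl1 in LXR DKO minus WT; and -0.33 to 0.053 for Fosl1 and -0.049 to 0.50 for Fosl2 in transgenic minus WT. The quotient of Fos-family over Jun-family sums moved to 0.321 to 0.339 in transgenic, 0.328 to 0.334 in LXR DKO libraries and 0.248 to 0.276 in WT libraries. The cause of these changes was not tested.

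Counts over all genes moved more. For LXR DKO minus WT (1739 genes) they were 1032 with no filter, 807 with only the 2 genotypes, 2823 with library weights, 1145 without both oocyte-containing libraries, and 609 (without LXR DKO 3) to 2140 (without WT 3) over single omissions, with 841 without LXR DKO 2, 975 without WT 1 and 1065 without WT 2. For transgenic minus LXR DKO (19 genes) they were 31 with quantile normalization, 93 with only the 2 genotypes, 159 with library weights and 6 to 150 (without WT 3) over single omissions, with 6 or 7 without any transgenic library, 12 without LXR DKO 1 or WT 1, and 6 without LXR DKO 2 or 3. For transgenic minus WT (1949 genes) they were 1096 with no filter, 4431 with library weights, 1248 without both oocyte-containing libraries and 650 (without transgenic 3) to 3555 (without WT 3) over single omissions, with 739 without transgenic 1, 783 without transgenic 2, 954 without WT 1 and 810 without WT 2. Replicate numbers are shared between genotypes, but same-numbered libraries deviated together in only 3 of 9 pairs (correlation of deviations across genes -0.293 to 0.672, above 0.1 in 3), and 0 of 9 libraries correlated best with their own number in both other genotypes. With the replicate block 8 genes passed in transgenic minus LXR DKO, 1178 in LXR DKO minus WT and 1513 in transgenic minus WT, and the block changed no call of a member. Fosl1 has no value with voom and Fosb none with the filter of 5 RPKM. Of 283 recomputed values of other named genes in LXR DKO minus WT 69 lost their call, and of 245 in transgenic minus WT 30 did; 0 reversed. Fosb, Fosl1 and Atf3 rest on 223 to 869 reads per library. The SE of the fold changes did not follow the number of reads. It was 0.225 for Fosl2 and 0.215 for Jund, against 0.211 for Atf3, 0.199 for Fosl1 and 0.182 for Fosb.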
